A study of Mus musculus with 2 samples.

Results

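The hnRNP and other splicing regulators are 41 mouse genes, taken from a list of symbols and matched by Entrez gene ID to both gene tables, out of 24532 gene IDs in those tables. All 41 were found, 40 of them reached at least 1 TPM (a level scaled to transcript length and to the library's total, so that genes can be compared) in at least 1 library, and 20 of those carry an hnRNP name. The RNA came from sorted CD69+ DP thymocytes, precursors of T cells that carry both CD4 and CD8 (double-positive) and gain CD69 after a T cell receptor signal, of C57BL/6 mice aged 6 weeks. The library labelled KO is NSRP1f/fCD4Cre, in which a CD4-driven Cre, active from the DP stage, can recombine floxed alleles of Nsrp1, the gene of the nuclear speckle protein NSrp70. The library labelled wild-type (WT) is NSRP1f/f, so both carry the floxed alleles and differ by the Cre. There was 1 library per genotype, hence no replicate check and no test of any difference. The labels do not say how many animals were pooled or which exon is floxed.

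The hnRNPs bind nascent RNA and, with the PTB, CELF, MBNL, RBM and similar proteins, decide which exons the spliceosome keeps. Many repress exons next to their binding sites, and several act on their own transcripts, so that extra protein diverts the RNA into a form that is degraded. In T cells hnRNPLL, hnRNPL and PTB are known for keeping the variable exons out of CD45, which the gene Ptprc encodes.

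The depth was 5076 megabases of covered exon in the library labelled KO and 4199 in the library labelled WT. Nsrp1 stood at 29.6 TPM in the library labelled KO and 29.7 TPM in the library labelled WT. The whole-gene level of the targeted gene's RNA thus does not separate the libraries as their labels do. The depth of its single exons is not given here, so this level does not show whether an exon was lost. Each direction below is between the 2 labelled libraries only. The 8 markers of DP thymocytes and of the sort were high in both, with summed levels of 5670 TPM in the library labelled KO and 5432 TPM in the library labelled WT. Of markers of other cells, 5 B cell genes summed to 61.4 TPM in the library labelled KO and 53.4 TPM in the library labelled WT, and 6 macrophage and dendritic cell genes to 259.8 TPM in the library labelled KO and 352 TPM in the library labelled WT. The 5 erythroid genes summed to 3.08 TPM in the library labelled KO and 1.36 TPM in the library labelled WT, with 2 of them at 0 in the library labelled KO and 3 in the library labelled WT (Hba-a1 and Hbb-bt in both). The 5 thymic epithelium genes summed to 8.54 TPM in the library labelled KO and 7.08 TPM in the library labelled WT, with Krt5, Krt8 and Foxn1 at 0 in both. Xist, made from the inactive X chromosome, stood at 76.3 TPM in the library labelled KO and 201.8 TPM in the library labelled WT, and the Y-linked Ddx3y at 71.2 TPM in the library labelled KO and 31.1 TPM in the library labelled WT; all 5 sex-linked marker genes were above 0 in both. The part of these differences in the results was not tested, and Hnrnph2, Mbnl3, Rbm3, Rbm10 and Nono are X-linked. In bulk RNA, fewer cells of a type and less RNA per cell cannot be told apart.

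None of the 40 measured regulators differed by 2-fold between the libraries, and none reached a log2 fold change of 0.5 in size. The fold change sets the library labelled KO over the library labelled WT, each with 1 TPM added. Over all 12029 genes with at least 1 TPM, 2.03% passed 2-fold and 9.78% passed 0.5, split into 3.37% higher and 6.42% lower. The 41 genes summed to 13915 TPM in the library labelled KO and 13847 TPM in the library labelled WT. Their median log2 fold change was -0.07, as was that of all genes, with a range of -0.46 to 0.25. A share of 87.5% of the regulators lay within 0.25 of zero, against 66.5% of all genes. These sets are not matched for level. All genes start at 1 TPM, while the lowest of the 40, Mbnl3, had 12.1 TPM in the library labelled KO and 10.1 TPM in the library labelled WT. In the lists of other splicing genes described at the end, the share was 92.3% (further hnRNP-type genes), 81.0% (SR proteins and kinases) and 66.7% (core spliceosome). Of the 40 genes, 13 were above zero, and 38.5% of all genes were. In FPKM, the same measure without TPM's rescaling, the fold changes of the 40 genes lie 0.10 higher (median shift), and 10 that are slightly below zero turn positive: Hnrnpa1, Hnrnpdl, Hnrnpll, Hnrnpr, Hnrnpu, Hnrnph1, Ptbp3, Mbnl1, Khdrbs1 and Nono. Their direction is therefore not given.

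**Figure D1:**
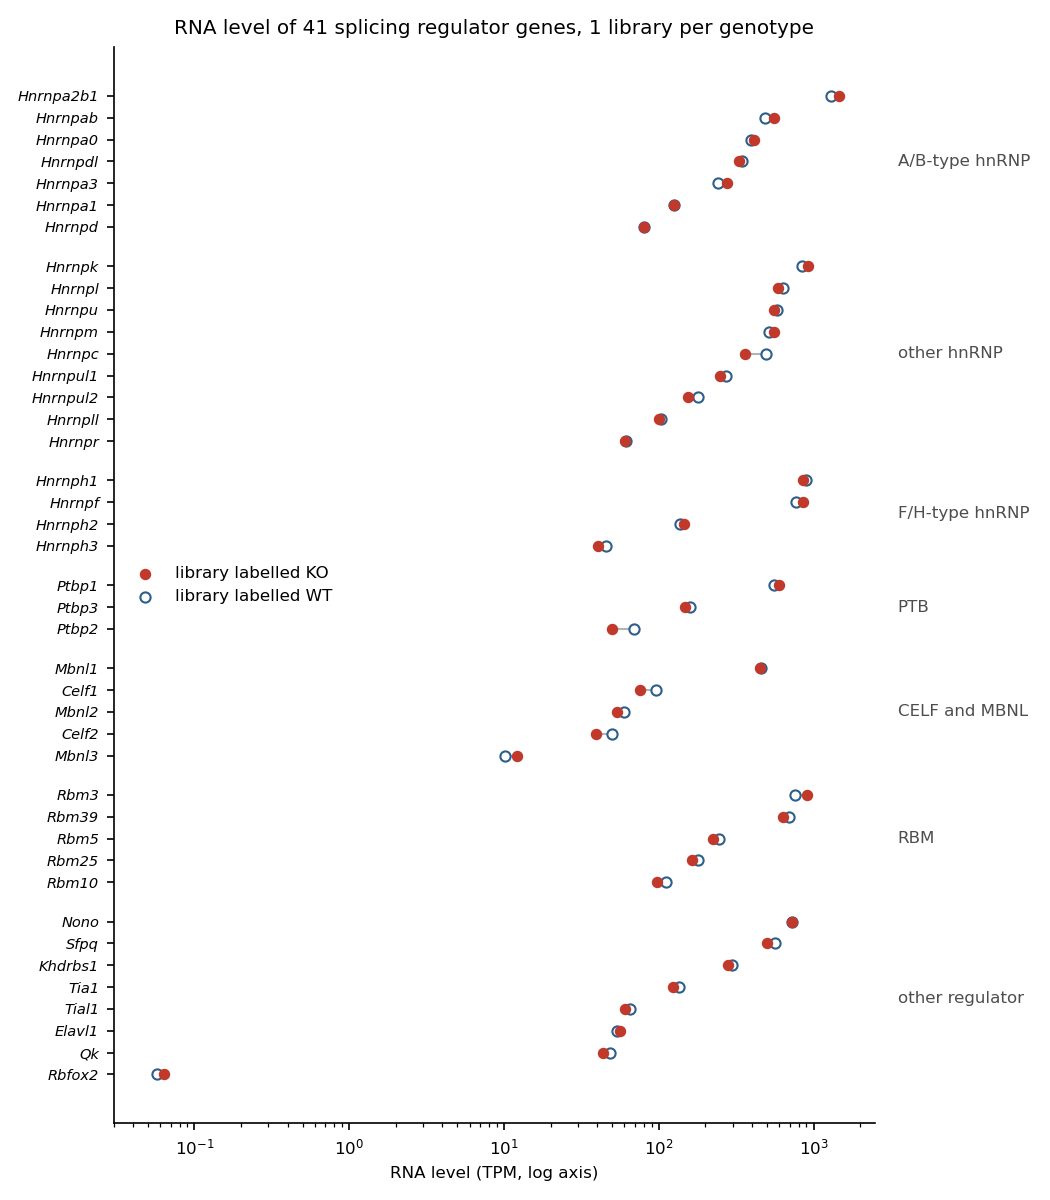
RNA level of the 41 genes in TPM on a log axis, in rows grouped by protein type. Filled points are the library labelled KO and open points the library labelled WT, 1 library each; in most rows they nearly coincide, and Ptbp2, Hnrnpc, Celf1 and Celf2 lie furthest to the left of their open points.

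The A/B-type hnRNPs have paired RNA-recognition domains and a glycine-rich tail and coat much of the nascent RNA. Hnrnpa2b1, whose protein also reads methylated RNA, was the most abundant of all 41 genes, with 1466 TPM (1451 to 1481) for the library labelled KO and 1303 TPM (1287 to 1319) in the library labelled WT, a log2 fold change of 0.17. These and later ranges are 95% exact Poisson intervals for a level and exact binomial intervals for a ratio, from estimated read pairs, and cover counting error only. Hnrnpab, which encodes CBF-A, had 555 TPM in the library labelled KO and 488 TPM in the library labelled WT. Hnrnpa3 had 276 TPM in the library labelled KO and 242 TPM in the library labelled WT, but 97.7% of the 50-base words of its transcript in GENCODE, a second annotation, also occur in other genes. That transcript holds 1091 words, against 2621 bases in the main RefSeq transcript that was quantified, so the share covers only part of the latter. Hnrnpab and Hnrnpa3 both had a log2 fold change of 0.19, and with Hnrnpa2b1 they were the A/B-type genes furthest above zero, also without their last exon. Hnrnpa0, a gene without introns, had 412 TPM in the library labelled KO and 397 TPM in the library labelled WT. Hnrnpdl had 328 TPM in the library labelled KO and 344 TPM in the library labelled WT. Hnrnpa1, a repressor of many exons, had 125 TPM in the library labelled KO and 126 TPM in the library labelled WT, with 74.1% of its words shared with other genes. Hnrnpd, whose AUF1 proteins also bind AU-rich elements and speed mRNA decay, had 80.9 TPM in the library labelled KO and 80.6 TPM in the library labelled WT. These last 4 genes lay between -0.07 and 0.05 on the log2 scale.

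Among the other hnRNPs, Hnrnpc stood apart. Its protein binds uridine tracts and keeps cryptic exons out of mRNA. It had 364 TPM (357 to 370.3) for the library labelled KO and 496 TPM (487 to 505) in the library labelled WT, a ratio of 0.733 (0.715 to 0.752), and this difference lay in its last exon, described below. The KH-domain gene Hnrnpk, a binder of C-rich RNA, had 915 TPM in the library labelled KO and 849 TPM in the library labelled WT. Hnrnpm, a binder of GU-rich RNA, had 556 TPM in the library labelled KO and 519 TPM in the library labelled WT. The log2 fold change was 0.11 in Hnrnpk, or 0.05 without its last exon, and 0.10 in Hnrnpm. Hnrnpl had 588 TPM in the library labelled KO and 635 TPM in the library labelled WT, a log2 fold change of -0.11. Its relative Hnrnpll, induced when T cells are activated, had 100.5 TPM in the library labelled KO and 104 TPM in the library labelled WT, an interval of the ratio of 0.921 to 1.02. Hnrnpu, a nuclear matrix protein gene, had 557 TPM in the library labelled KO and 579.7 TPM in the library labelled WT. Its relative Hnrnpul1 had 247 TPM in the library labelled KO and 271 TPM in the library labelled WT. Hnrnpul2, also of this group, had 155 TPM in the library labelled KO and 180.1 TPM in the library labelled WT, a ratio of 0.863 (0.839 to 0.889). Each of its 12 constitutive exons was lower, with log2 ratios of -0.34 to -0.083. Hnrnpr had 60.4 TPM in the library labelled KO and 61.4 TPM in the library labelled WT.

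The F/H-type hnRNPs bind runs of G. Hnrnpf had 852 TPM in the library labelled KO and 768 TPM in the library labelled WT, a log2 fold change of 0.15, which was 0.03 without its last exon. Its close relative Hnrnph1 had 849.9 TPM in the library labelled KO and 888 TPM in the library labelled WT. Hnrnph2 had 146 TPM in the library labelled KO and 137 TPM in the library labelled WT, a log2 fold change of 0.09 that is -0.05 without its last exon. Hnrnph3 had 40.8 TPM in the library labelled KO and 45.5 TPM in the library labelled WT. Shared words reach 69.6% in Hnrnpf and 30.1% in Hnrnph2, so reads of these 2 genes can be split with near-identical copies. Such words make up 10% or more of the GENCODE transcript in 12 of the 41 genes, and Hnrnpab (29.0%) shares them with the overlapping gene Phykpl. In some genes the GENCODE transcript differs much in length from the RefSeq transcripts quantified, so these shares need not hold for the latter.

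Of the 3 PTB genes, Ptbp2 had the largest fold change. These proteins repress exons beside pyrimidine tracts, and Ptbp1 protein is known to cause skipping of an exon of Ptbp2, which leads to decay of the Ptbp2 RNA. Ptbp1 had 600.2 TPM (592 to 608) for the library labelled KO and 553 TPM (544 to 562) in the library labelled WT, a log2 fold change of 0.12, which was 0.05 without its last exon. Ptbp2, the neuronal paralog, had 49.8 TPM (47.6 to 52.1) for the library labelled KO and 68.7 TPM (65.7 to 71.8) in the library labelled WT, a ratio of 0.725 (0.680 to 0.772). This was the lowest of the 40 fold changes, at -0.46. Every one of its 12 constitutive exons was lower in the library labelled KO, with log2 ratios of -0.83 to -0.12, and its last exon was lower too, at -0.48. Ptbp3 had 148 TPM in the library labelled KO and 158 TPM in the library labelled WT.

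The CELF and MBNL families act in opposite directions on many exons, with CELF proteins binding GU-rich and MBNL proteins YGCY-type RNA. Celf1 had 75.3 TPM (73.4 to 77.2) for the library labelled KO and 96.1 TPM (93.7 to 98.5) in the library labelled WT. Celf2, which is induced on T cell activation, had 39.4 TPM (38.1 to 40.7) for the library labelled KO and 50.02 TPM (48.4 to 51.7) in the library labelled WT. Both were lower, with log2 fold changes of -0.35 and -0.34, and they remained below zero in FPKM and after the median log2 ratio of all genes was set to 0. Mbnl1 had 449 TPM in the library labelled KO and 459 TPM in the library labelled WT. Mbnl2 had 54.01 TPM in the library labelled KO and 59.6 TPM in the library labelled WT. Mbnl3, the least abundant of this family, had 12.1 TPM (11.5 to 12.9) for the library labelled KO and 10.1 TPM (9.42 to 10.9) in the library labelled WT, a log2 fold change of 0.24, but -0.10 without its last exon.

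Rbm3, a cold-inducible RNA-binding protein gene on the X chromosome, had the highest fold change with 1 TPM added; with 0.1 TPM added Mbnl3 is higher (0.26, against 0.25 for Rbm3). The gene had 905 TPM (889.6 to 919.9) for the library labelled KO and 760.0 TPM (744 to 776) in the library labelled WT, a ratio of 1.19 (1.16 to 1.22), and its 4 constitutive exons were all higher, by 0.20 to 0.25 on the log2 scale. A share of 33.4% of its words occurs in other genes, chiefly a pseudogene. The other RBM genes were below zero. Rbm5 and Rbm10 are related regulators of apoptosis genes. Rbm5 had 223 TPM in the library labelled KO and 246 TPM in the library labelled WT, and Rbm10 had 97.2 TPM in the library labelled KO and 111 TPM in the library labelled WT. Rbm25 had 165 TPM in the library labelled KO and 179 TPM in the library labelled WT. Rbm39, an SR-like cofactor of U2AF, had 632 TPM in the library labelled KO and 694 TPM in the library labelled WT. Their log2 fold changes ran from -0.19 to -0.12, in Rbm10 and Rbm25.

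The remaining regulators lay between -0.16 and 0.06. Sfpq and Nono encode the 2 paraspeckle partners PSF and p54nrb. Sfpq had 500.1 TPM in the library labelled KO and 560.5 TPM in the library labelled WT, and Nono had 727 TPM in the library labelled KO and 730.1 TPM in the library labelled WT. Khdrbs1, which encodes the signal-responsive splicing factor SAM68, had 279 TPM in the library labelled KO and 295 TPM in the library labelled WT. Qk, a KH-domain gene, had 43.7 TPM in the library labelled KO and 48.3 TPM in the library labelled WT. Tia1 and Tial1 encode U-rich RNA binders that recruit U1 snRNP to weak splice sites. Tia1 had 124 TPM in the library labelled KO and 136 TPM in the library labelled WT, and Tial1 had 60.6 TPM in the library labelled KO and 65.1 TPM in the library labelled WT. Elavl1, which encodes the mRNA-stabilising protein HuR, had 56.2 TPM in the library labelled KO and 53.9 TPM in the library labelled WT, a log2 fold change of 0.06 that is -0.14 without its last exon. Rbfox2, a reader of the UGCAUG motif, was close to absent, with 0.0638 TPM (0.0207 to 0.149) for the library labelled KO and 0.0572 TPM (0.0137 to 0.156) in the library labelled WT, and it is left out of the counts.

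Read depth along the genes showed where the lower levels lay. Depth is given as TPM-equivalents, the coverage of an exon scaled to the library as TPM is, and constitutive exons are those held by every expressed transcript. Outside the last exon the median log2 ratio of 39 regulators was -0.14, against -0.15 over all genes, and 30 of the 39 were below zero, as were 68.2% of all genes. Celf1 alone was past 0.5 in this part of the gene, at -0.68, where 11.9% of all genes lie that hold 100 or more read pairs both in the last exon and outside it. Its 12 constitutive exons were all lower in the library labelled KO, with log2 ratios of -1.01 to -0.41 and a median of -0.70, while 12.5% of all genes had such a median at or below -0.5. Its last exon stood at 75.3 TPM-equivalents in the library labelled KO and 89.5 in the library labelled WT, a log2 ratio of only -0.25. The next lowest genes outside the last exon were Ptbp2 (-0.44), Ptbp3 (-0.38), Mbnl1 (-0.33), Tia1 (-0.31) and Mbnl2 (-0.31). In all, 12 of 37 regulators had every constitutive exon lower, and 29.5% of all genes did. Only in Celf1 (-0.41), Ptbp3 (-0.24), Ptbp2 (-0.12) and Mbnl1 (-0.11) did the highest such exon lie further below zero than 0.10, the size of the FPKM shift. In the rest of the 12 it lay between -0.084 (Elavl1) and -0.0037 (Celf2), so that count depends on the scaling. Hnrnph1 and Khdrbs1, whose direction is not given above, are among them.

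**Figure D2:**
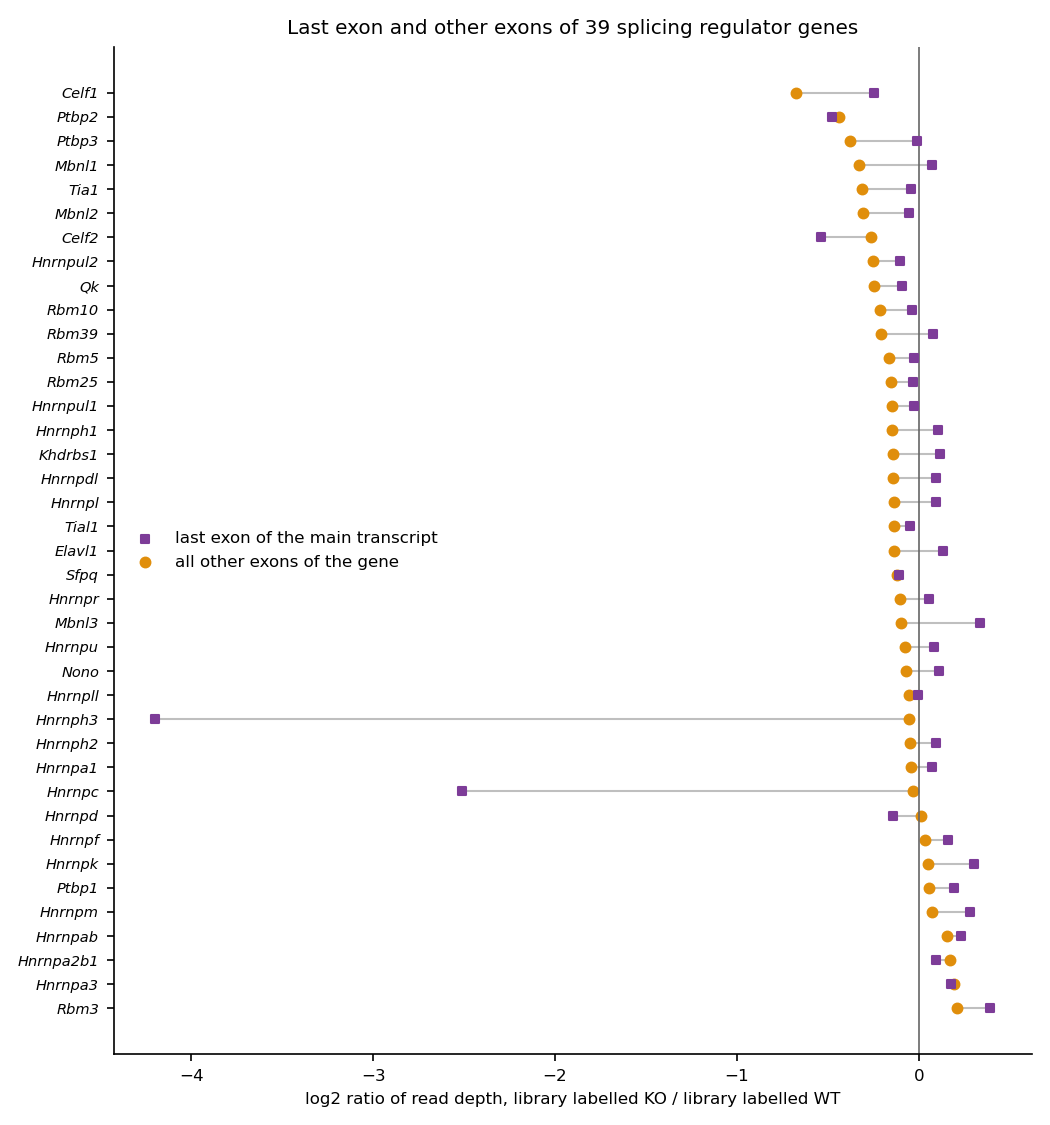
The log2 ratio of read depth, library labelled KO over library labelled WT, for the last exon of the main transcript (squares) and all other exons (circles) of 39 genes, ordered by the circles. Celf1 is lowest outside the last exon at -0.68, and the squares of Hnrnpc and Hnrnph3 lie far to the left of their circles.

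Last exons were higher relative to the rest of the gene in most regulators, as they were in most genes. Of 38 regulators that hold 100 or more read pairs in the last exon and in the rest, 32 were above zero, against 85.8% of 6797 genes, and the median was 0.15 in the regulators and 0.20 in all genes. Constitutive exons of the 3′ part also had higher log2 ratios than those of the 5′ part in 35 of 37 regulators, against 74.1% of all genes, with medians of 0.12 in both sets. The part of this tilt between the libraries in the exon results was not tested. The largest positive differences were those of Mbnl3 (0.44), Celf1 (0.43), Mbnl1 (0.40) and Ptbp3 (0.36).

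Hnrnpc was the one regulator whose last exon differed 2-fold or more from the rest of the gene, a threshold that 0.839% of all genes passed and 0.324% passed in this direction. It was also the one regulator past 0.5, as 6.84% of all genes were. The exon lies at chr14:52073380-52075160 (mm10, minus strand), is 1781 bases long and is shared by all 5 annotated transcripts. It held 826 read pairs in the library labelled KO and 3661 in the library labelled WT, which is 41.6 TPM-equivalents in the library labelled KO and 238 in the library labelled WT, a ratio of 0.175 (0.162 to 0.189). The exons before it were level, with a log2 ratio of -0.03, and the constitutive exon nearest to it stood at 1243 TPM-equivalents in the library labelled KO and 1189 in the library labelled WT. A share of 23.0% of the words of its GENCODE transcript occurs in other genes. That transcript holds 1642 words, against 2784 bases in the main RefSeq transcript, so the share may not describe the last exon. In Hnrnph3 the last exon held 4.27 read pairs in the library labelled KO and 60.8 in the library labelled WT, a ratio of 0.0545 (0.0152 to 0.143), too few for the 100-pair rule. It overlaps the opposite-strand gene Rufy2, which stood at 26.1 TPM in the library labelled KO and 29.8 TPM in the library labelled WT. Celf2 also had a lower last exon, with 9.51 TPM-equivalents in the library labelled KO and 13.8 in the library labelled WT, a difference of -0.27 from its other exons. With only exons of identical ends taken as the last exon, the definition used at first, this difference is -0.53 and that of Ptbp2 is -0.39 in place of -0.04.

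Ptbp1 departed at the other end. Its first exon, 290 bases at chr10:79854432-79854721 (mm10, plus strand), held 321 read pairs in the library labelled KO and 10.5 in the library labelled WT, which is 73.9 TPM-equivalents in the library labelled KO and 3.12 in the library labelled WT. The next exon, of 31 bases, stood at 684 TPM-equivalents in the library labelled KO and 776 in the library labelled WT, so the first exon was at 10.8% of its neighbour in the library labelled KO and at 0.402% in the library labelled WT. The difference of the log2 ratios was 4.75, a ratio of 26.9 (14.6 to 55.4). It was the one first exon of 33 tested in the regulators to pass 2-fold against the next constitutive exon, as 2.22% of first exons of all genes did. The rest of Ptbp1 was level, its constitutive exons lying between -0.18 and 0.14. All of this exon overlaps an opposite-strand long non-coding RNA gene, E130317F20Rik, which stood at 2.53 TPM in the library labelled KO and 2.71 TPM in the library labelled WT, and the sources used here do not say whether strand was used in counting.

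**Figure D3:**
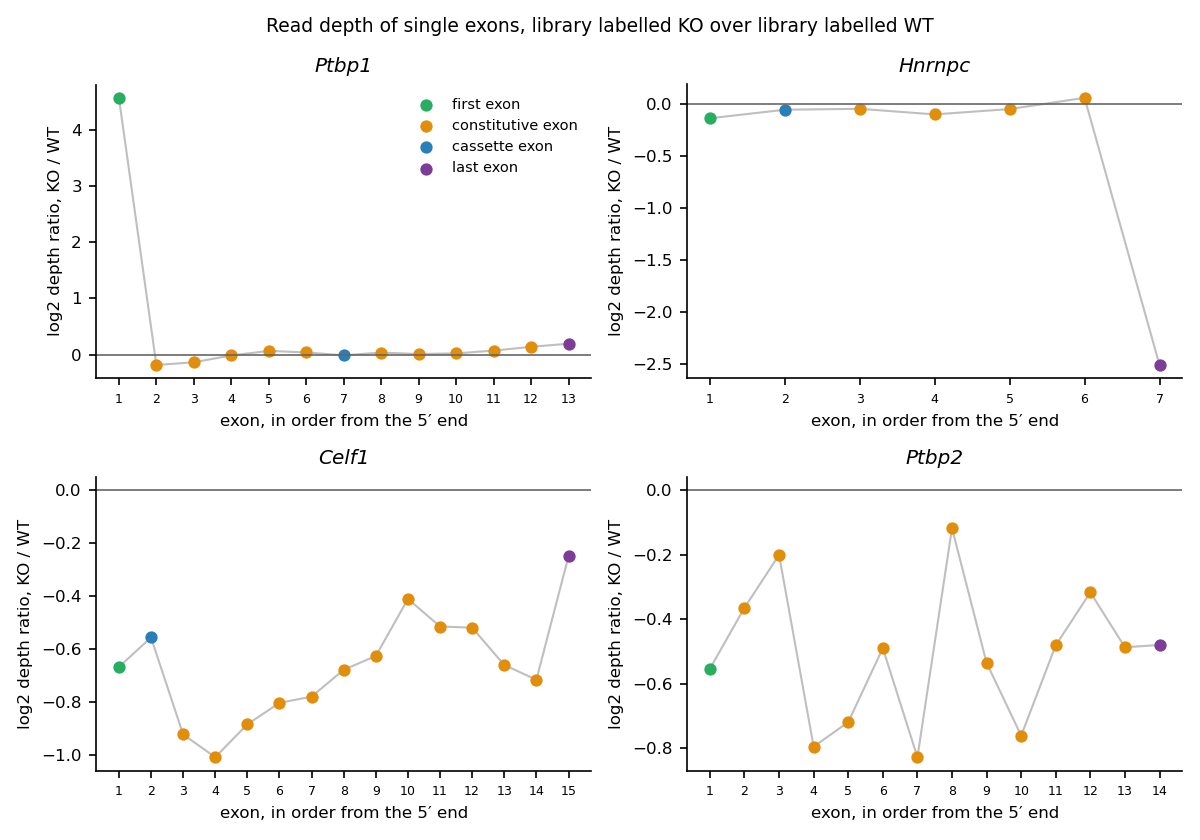
The log2 ratio of exon read depth, library labelled KO over library labelled WT, for Ptbp1, Hnrnpc, Celf1 and Ptbp2, with the plotted exons in order from the 5′ end and colours giving the kind of exon. Ptbp1 departs in the first exon (4.57) and Hnrnpc in the last (-2.51), whereas the exons of Celf1 and Ptbp2 all lie below zero; the vertical scales differ.

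Cassette exons, which some transcripts hold and others skip, were described by their depth as a percent of the nearest constitutive exons on either side. The regulators had 24 such exons in 17 genes, 14 of them with a length that keeps the reading frame. Of the 24, 18 were lower in the library labelled KO relative to their flanks, against 56.4% of 1510 cassette exons of all genes. None passed 2-fold, as 4.90% of all did. A log2 difference of 0.5 was passed by 2 downwards, where 12.5% of all cassette exons lie, and by 0 upwards, where 5.50% lie. Both belong to MBNL genes and are the matching exon of 54 bases, which in MBNL1 is known to promote nuclear localisation and to be skipped under the protein's own control. Their sequences are shown because the exon is the same in both paralogs, with capitals at the 8 of 54 positions where the genes differ (85.2% identity); they are read from GENCODE M21 transcripts at the mm10 coordinates, 5′ to 3′ on the plus strand.
Mbnl1 exon, chr3:60614683-60614736: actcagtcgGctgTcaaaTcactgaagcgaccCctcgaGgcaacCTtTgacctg
Mbnl2 exon, chr14:120395712-120395765: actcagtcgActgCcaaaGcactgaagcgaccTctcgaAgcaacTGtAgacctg

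The Mbnl2 exon stood at 21.9% of its flanks in the library labelled KO and 43.2% in the library labelled WT, a log2 difference of -0.98. It rests on 17.99 read pairs in the library labelled KO and 27.7 in the library labelled WT, and the ratio interval runs from 0.264 to 0.952. The Mbnl1 exon stood at 8.43% of its flanks in the library labelled KO and 12.04% in the library labelled WT, a ratio of 0.7002 (0.515 to 0.9498), from 79.1 read pairs in the library labelled KO and 100.1 in the library labelled WT. Both exons were thus lower in the library labelled KO. Each interval ends just below 1 but takes the flank depth as known. The full counting error of the ratio is wider, may include 1 and was not computed. Against all constitutive exons of the gene in place of the flanks, the Mbnl1 exon is no longer past 0.5 (-0.45), the Mbnl2 exon is (-0.82), and so are the 34-base exon of Ptbp3 (-0.54) and the 247-base exon of Mbnl3 (-0.70). The Mbnl2 transcript with the exon, NM_175341, made up 12.8% of the gene's TPM in the library labelled KO and 21.3% in the library labelled WT. The 36-base exon of Mbnl1 stood at 75.3% of its flanks in the library labelled KO and 71.8% in the library labelled WT. Against its flanks the Mbnl3 exon stood at 35.5% in the library labelled KO and 49.8% in the library labelled WT, with a ratio interval of 0.389 to 1.29 that spans 1.

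In Tia1 a neighbouring pair of exons, of 124 and 146 bases, was lower against its flanks. The first stood at 98.7% in the library labelled KO and 129% in the library labelled WT, and the second at 91.7% in the library labelled KO and 117.5% in the library labelled WT. Against all constitutive exons of Tia1 their log2 differences were only -0.05 and -0.02. The 33-base exon that separates the Tia1 protein isoforms was level, with 55.4% in the library labelled KO and 57.2% in the library labelled WT.

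**Figure D4:**
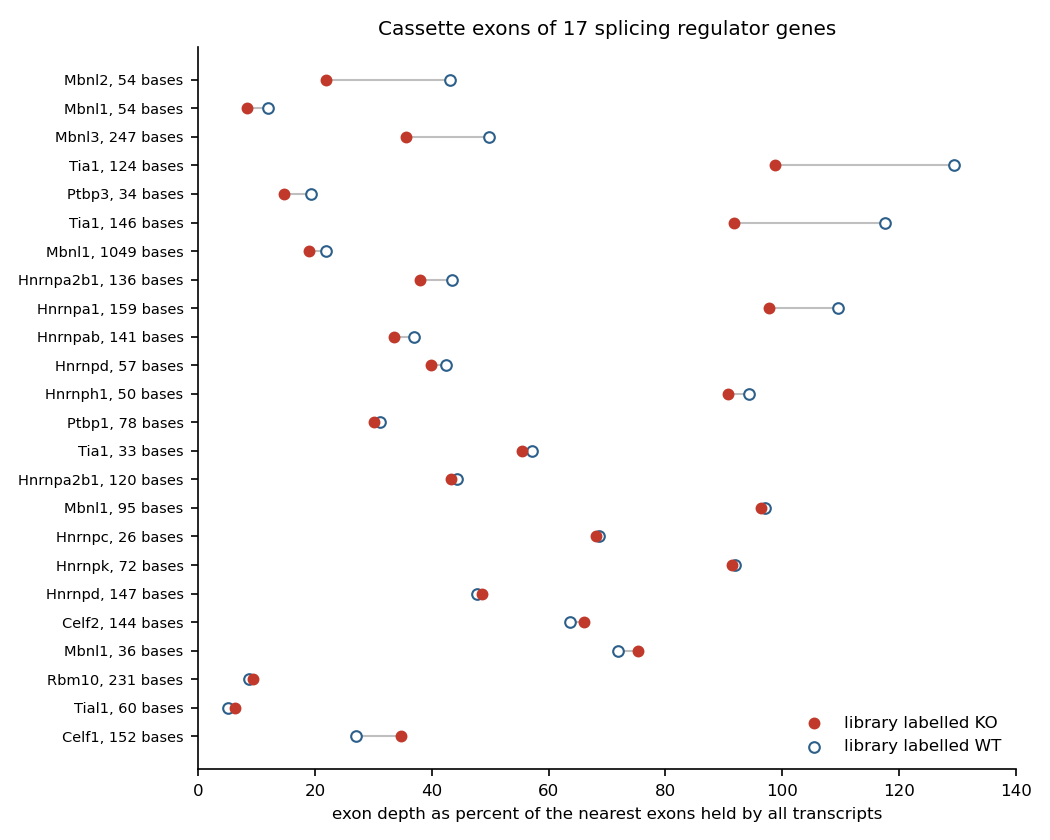
Depth of 24 cassette exons as a percent of the nearest exons held by all transcripts, in the library labelled KO (filled) and the library labelled WT (open), ordered by the difference of their log2 ratios. The Mbnl2 exon of 54 bases shows the widest gap on the log2 scale, and most other pairs nearly coincide.

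Exons that set the protein isoforms of the hnRNPs and of Ptbp1 stood close to level. The sequences of 2 of them are given to show the short, frame-keeping inserts concerned, in lower case throughout and as transcribed; the Ptbp1 exon lies on the plus strand and adds to the linker between RNA-binding domains, and the Hnrnpd exon lies on the minus strand and is held by the p40 and p45 forms of AUF1.
Ptbp1 exon of 78 bases, chr10:79860117-79860194: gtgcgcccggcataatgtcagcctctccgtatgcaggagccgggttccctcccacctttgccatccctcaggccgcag
Hnrnpd exon of 57 bases, chr5:99976534-99976590: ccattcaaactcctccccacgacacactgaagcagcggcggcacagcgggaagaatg

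The Ptbp1 exon stood at 30.1% of its flanks in the library labelled KO and 31.2% in the library labelled WT, a ratio of 0.966 (0.836 to 1.12). The Hnrnpd exon stood at 39.9% in the library labelled KO and 42.5% in the library labelled WT, and the other one of Hnrnpd, of 147 bases in the glycine- and tyrosine-rich tail, at 48.6% in the library labelled KO and 47.7% in the library labelled WT. The counting intervals of these ratios all hold 1. Its counterpart in Hnrnpab, 141 bases long, stood at 33.5% in the library labelled KO and 36.9% in the library labelled WT. In Hnrnpa2b1 a 136-base exon held only by a non-coding transcript stood at 37.9% in the library labelled KO and 43.4% in the library labelled WT, a ratio of 0.872 (0.809 to 0.941).

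Shares of whole transcripts within the TPM of their gene could be compared in 31 regulators with at least 2 annotated transcripts and 10 TPM in both libraries. None differed by 25 percentage points, which 6.63% of 3032 genes did, and 2 differed by 10 points or more, which 27.7% did. A difference of 5 points was passed by 10 regulators and by 51% of all genes. The median of the largest difference per gene was 3.81 points in the regulators and 5.11 points in all genes. In Hnrnpr, NM_028871 made up 23.4% (22.3 to 24.6) in the library labelled KO and 40.1% (38.6 to 41.6) in the library labelled WT. This transcript differs from NM_001277121 by the start of exon 2, which lies 3 bases further upstream (chr4:136314087-136314255 in mm10), and other transcripts skip the exon. The upstream start held 53.8% of the depth of exon 2 in the library labelled KO and 58.5% in the library labelled WT, a smaller difference than that of the shares. Of the transcripts that skip exon 2, NM_001277123 made up 30.7% in the library labelled KO and 25.4% in the library labelled WT. NM_001277122 made up 23.4% in the library labelled KO and 15.3% in the library labelled WT. Yet all of exon 2 stood at 48.0% of exon 3 in the library labelled KO and 39.9% in the library labelled WT. The exon depth of Hnrnpr therefore goes in the opposite direction to its shares, which put less exon 2 in the library labelled KO. In Mbnl3, NM_134163, which holds the exon of 247 bases, made up 61.4% (58.6 to 64.2) in the library labelled KO and 75.2% (71.9 to 78.2) in the library labelled WT. These share intervals leave out the uncertainty of the authors' assignment of reads to transcripts.

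Non-coding transcripts are annotated beside coding ones in 4 regulators that reach 10 TPM. Their TPM share was at least 5 points lower in the library labelled KO in 2 of the 4, as in 23.7% of all such genes. In Khdrbs1 the share was 29.9% in the library labelled KO and 37.9% in the library labelled WT. The 3 exons held only by its non-coding transcript stood at 46.1 TPM-equivalents in the library labelled KO and 60.3 in the library labelled WT, while the exon held only by its coding transcript stood at 165 in the library labelled KO and 153 in the library labelled WT. Exon depth and share thus differed in the same direction in Khdrbs1, but both are drawn from the same deposited coverage. The coding-only exons of Khdrbs1 and, below, of Sfpq are the last exons of their main transcripts. Last exons were higher relative to the rest in 85.8% of genes, and the part of that tilt in these depths was not tested. In Sfpq the share was 34.4% in the library labelled KO and 42.7% in the library labelled WT, but the exons held only by its non-coding transcript stood at 341 TPM-equivalents in the library labelled KO and 353 in the library labelled WT, and the exon held only by its coding transcript at 292 in the library labelled KO and 316 in the library labelled WT. The exon depths of Sfpq therefore do not show the shift that the shares show, and its non-coding exons overlap another annotated gene, Gm12940. The share was 29.6% in the library labelled KO and 30.7% in the library labelled WT in Hnrnpa2b1, and 57.4% in the library labelled KO and 54.9% in the library labelled WT in Hnrnpa1.

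Genes known as splicing targets of such proteins were looked at in a list of 7, of which Ptprc, Pkm, Lef1 and Traf3 had cassette exons with enough depth. Of 10 such exons, 4 were lower by 0.5 or more against their flanks, where 12.5% of all cassette exons lie. Of these, 3 are variable exons of a single gene, Ptprc, and the other is the exon of Pkm that PTB, hnRNPA1 and hnRNPA2 are known to repress. Exon depth was not the measure planned for these genes, and their transcript shares, which were, are not given here. The Ptprc exons, of 141, 147 and 129 bases, stood at 11.9%, 10.6% and 3.46% of their flanks in the library labelled KO and at 16.9%, 15.4% and 6.42% in the library labelled WT. The Pkm exon stood at 8.49% in the library labelled KO and 12.9% in the library labelled WT, a ratio of 0.661 (0.536 to 0.813), and the exon that replaces it at 79.2% in the library labelled KO and 75.7% in the library labelled WT. An 84-base exon of Lef1 stood at 87.9% in the library labelled KO and 85.7% in the library labelled WT.

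The rest of the splicing machinery was read from 3 further lists. Of 13 further hnRNP-type genes, 0 passed a log2 fold change of 0.5 and the median was -0.0043. Matr3 (199 TPM in the library labelled KO and 218 in the library labelled WT) was among the lowest, and Raly (551 TPM in the library labelled KO and 513 in the library labelled WT) and Rbmxl1 (119 TPM in the library labelled KO and 107 in the library labelled WT) were highest. Of 21 SR proteins and kinases 2 passed 0.5, Srrm2 downwards (-0.57) and Tra2b upwards (0.68), and the median was -0.02. Srrm2, a speckle scaffold gene, had 216 TPM in the library labelled KO and 322 TPM in the library labelled WT, and Srrm1, the next lowest, had 124 TPM in the library labelled KO and 158 TPM in the library labelled WT. Srsf5, the next highest after Tra2b, had 983 TPM in the library labelled KO and 848 TPM in the library labelled WT. Tra2b had 262 TPM in the library labelled KO and 163 TPM in the library labelled WT, but a log2 ratio of 0.02 outside its last exon. Of 30 core spliceosome genes 0 passed 0.5, with a median of 0.03; Prpf8 (204 TPM in the library labelled KO and 253 in the library labelled WT) and Snrnp70 (596 TPM in the library labelled KO and 724 in the library labelled WT) were lowest and Snrpd1 (185 TPM in the library labelled KO and 142 in the library labelled WT) and Snrpf (198 TPM in the library labelled KO and 154 in the library labelled WT) highest. None of these 3 lists held a gene with a 2-fold difference.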

How the data were processed

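Total RNA was taken with Trizol from sorted cells and 1 ug went into a TruSeq RNA kit, per the labels' protocols. The authors aligned reads with HISAT2 to mm10, per the submitters' processing notes, and quantified RefSeq transcripts with StringTie 1.3.3b, per the file headers. The sources used here give neither the aligner's version nor its filters. The deposited tables give TPM and FPKM per gene and transcript, and the authors' coverage (mean read depth per base) per transcript and exon, which StringTie splits between transcripts. Values of a gene ID were summed over its loci. Exon depth is the deposited coverage summed over transcripts and scaled to the library, with overlapping last exons joined. Read pairs of genes, transcripts and last exons are covered bases divided by 202, that is mates of 101 bases: 39.8% of low transcripts in the library labelled KO and 40.3% in the library labelled WT came within 2 bases of such a multiple, and 2.48% would by chance. For cassette and first exons the exon length was first extended by the mate length less 1 base. Mates that lie only partly in the exon then count whole, so these numbers are on another scale, most of all in short exons. Genes needed 1 TPM in at least 1 library, the pseudocount was 1 TPM, and cassette exons needed a coverage of 10 in 1 library. Expressed transcripts hold at least 1% of the gene's TPM. PCR copies are not independent molecules, so all 95% intervals cover counting error only. Those of an exon against its flanks use the exon's own read pairs and take the flank depth as known, so they are too narrow. All 41 genes are named, with transcripts past 10 points, last exons past 0.5, the 2 highest and 2 lowest genes of each other list (1 is not reported here) and Nsrp1; the further exons, transcripts and target genes were named after their values were seen. The members and lists were chosen with earlier results of these data known. Alternatives covered the pseudocount, FPKM, rescaling, filters, thresholds, the last exon and the exon base. The fold rule and exon comparison were tested on simulated read pairs with counting error only. That simulation leaves out differences between animals and in the assignment of reads. It also gave each exon more read pairs than the Mbnl2 exon holds, or the first exon of Ptbp1 in the library labelled WT. Most simulated exons also held more than the Mbnl1 exon of the same kind. The simulation therefore does not cover exons of such low depth. Definitions of 4 kinds of exon were revised after values were seen, because depth is split between overlapping exons: overlapping last exons were joined, overlapping first exons left out, cassette exons limited to those inside the span of more transcripts than hold them, and shared parts of non-coding exons counted as coding. The closing section gives the results before revision. The software was scipy 1.17.1, matplotlib 3.10.9, pandas 2.3.3 and numpy 2.4.6 under Python 3.11.15.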

Additional observations from a re-analysis of the deposited data

How the results depend on the processing

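No paired analysis was possible because there is 1 library per genotype. Under no setting did one of the 40 levels pass 2-fold. The median log2 fold change of the regulators was -0.07, and 0.032 in FPKM, 0.0029 with the median log2 ratio set to 0, and -0.14 without last exons; 10, 7 and 3 of the signs turned in the same order. Under the same settings the further hnRNP-type genes had 0.095, 0.066 and -0.080, and the SR proteins and kinases 0.082, 0.053 and -0.085; core spliceosome genes had 0.13 in FPKM and 0.10 after rescaling. The pseudocount and filters turned no sign. A 10-point threshold gave 2 transcript calls in place of 0. All that follows was chosen after seeing the data. Asking for 30 read pairs in 1 library only gave 2 last exons (with Hnrnph3) in place of 1. Before the exon definitions were revised, 2 last exons passed 0.5 (Hnrnpc and Celf2) in place of 1, 1 first exon of 42 passed 2-fold in place of 1 of 33, and 4 of 37 cassette exons passed 0.5, with exons at alternative ends among them, in place of 2 of 24. From exon depth, before and after revision, the median non-coding share differed by -1.31 points in place of -4.56, and that of Sfpq by 1.09 in place of -8.31. The causes were not tested. Depth limits the Mbnl2 and Mbnl3 exons and Hnrnph3.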
